A study of Mus musculus with 4 samples.

Results

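The ADAM and ADAMTS proteases were taken as every gene of the deposited table whose symbol is Adam, Adamts or Adamtsl followed by a number and at most 1 letter. This gave 56 of 22222 genes, of which 38 reached 1 scaled CPM or more in at least 2 of the 4 libraries and were tested. Scaled CPM is the deposited unit, the reads of a gene divided by a scaled library size. The libraries held RNA from cells of mouse keratoacanthomas, skin tumours that can regress, raised by 20 weeks of treatment with the carcinogen DMBA. The cells had been sorted as positive for Tomato and P-cadherin, and the labels call them Epi. The sources used here do not say what drives the Tomato reporter, nor the strain or age of the mice. Tumours came from 2 mice still on DMBA (week 0) and from 2 other mice kept for 1 week without it, so the groups differ in DMBA withdrawal and share the 20 weeks of treatment before it. The series, by its title, is about Wnt and retinoic acid signals as tumours regress, and the comparison asks how the sorted cells differed 1 week after DMBA stopped.

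ADAMs are membrane-anchored proteins with a metalloprotease and a disintegrin domain. Those with an active protease cut the outer part of other membrane proteins from the cell surface, a step called shedding, and so release growth factors and cytokines or open the way to Notch activation. ADAMTS enzymes are secreted relatives with thrombospondin type repeats that act on the extracellular matrix, where they cut proteoglycans such as versican or trim procollagens. ADAMTS-like proteins have the repeats but no protease domain and bind to matrix fibres. In skin, sheddases act in keratinocytes, while much of the ADAMTS output is known from fibroblasts and vessel cells.

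The 4 libraries differed in the cell types their transcripts mark, most of all the on-DMBA pair. Values are given throughout in the order on-DMBA replicate 1, on-DMBA replicate 2, 1-week replicate 1, 1-week replicate 2. The summed level of 12 keratinocyte markers was 51670, 573, 4671 and 3951 scaled CPM, that of 9 fibroblast markers 183, 41960, 47840 and 50440, and that of 8 measured myeloid markers 14.5, 14660, 5925 and 10760. For 6 endothelial markers the sums were 5.34, 164, 616 and 1409, and for 7 smooth muscle and pericyte markers 106, 502, 1312 and 1878. All 12 keratinocyte markers were highest in on-DMBA replicate 1, and all 9 fibroblast and all 8 myeloid markers were lowest there. Keratinocyte markers had the highest sum of the 7 lists in on-DMBA replicate 1, whereas fibroblast markers had it in the other 3 libraries. The 7 measured T and NK cell markers summed to 1.66, 31.2, 58.0 and 76.3, and the 6 mast cell markers to 0.831, 8.08, 13.1 and 43.4, with the mast cell genes Cma1, Mcpt4, Tpsb2 and Fcer1a at 0 in on-DMBA replicate 1. Cdh3, which encodes the sorted antigen P-cadherin, was at 325.5, 3.23, 42.8 and 30.4 (named outside the rule for genes). In the library labelled on-DMBA replicate 2, these values go against the sort for P-cadherin, and in both 1-week libraries fibroblast markers also exceeded keratinocyte markers. Whether the sort or a label accounts for this was not tested. In bulk RNA of this kind, fewer cells of a type and less RNA per cell cannot be told apart. The libraries held 9678682, 5635945, 5551937 and 7662159 recovered reads, so 3 reads correspond to 0.356, 0.538, 0.469 and 0.428 scaled CPM, and intervals from reads cover counting error only.

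The 3 sequences shown precede the start sites of family members that lay higher in each 1-week library than in each on-DMBA library and had the smallest p values among such members with an entry in the promoter table (Adamts9, Adamts3 and Adam8). Each is the 250 bases before the RefSeq start on build GRCm38.p6, written 5′ to 3′ on the strand of the gene, and capitals mark every match on either strand to any of 6 motifs. The motifs were an AP-1 site (TGANTCA), a TCF/LEF site (CTTTGAT), a retinoid receptor half-site (AGGTCA), the xenobiotic response core (GCGTG), a GC box (GGGCGG) and a TATA box (TATAAA), and they were chosen with the values of these genes known.
Adamts9, chr6:92943535-92943784, minus strand: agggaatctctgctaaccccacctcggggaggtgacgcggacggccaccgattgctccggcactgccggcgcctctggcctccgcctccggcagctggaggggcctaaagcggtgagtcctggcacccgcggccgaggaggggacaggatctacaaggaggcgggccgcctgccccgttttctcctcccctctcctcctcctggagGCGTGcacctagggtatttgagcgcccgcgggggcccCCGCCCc
Adamts3, chr5:89883335-89883584, minus strand: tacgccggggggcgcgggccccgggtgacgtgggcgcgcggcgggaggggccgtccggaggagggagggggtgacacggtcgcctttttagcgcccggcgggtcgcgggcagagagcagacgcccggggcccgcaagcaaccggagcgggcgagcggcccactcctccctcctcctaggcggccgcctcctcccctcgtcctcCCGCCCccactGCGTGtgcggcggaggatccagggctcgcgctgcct
Adam8, chr7:139992563-139992812, minus strand: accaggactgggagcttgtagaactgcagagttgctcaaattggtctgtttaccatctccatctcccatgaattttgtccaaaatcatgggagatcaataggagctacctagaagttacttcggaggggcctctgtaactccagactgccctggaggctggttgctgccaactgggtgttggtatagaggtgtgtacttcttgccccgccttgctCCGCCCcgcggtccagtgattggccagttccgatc
The Adamts9 and Adamts3 windows each hold 1 xenobiotic response core and 1 GC box, and their G and C content is 71.2% and 78.0%, against a median of 52.4% over all such windows. The Adam8 window, at 52.8%, holds 1 GC box. No window of these genes holds the letters of the AP-1, TCF/LEF, retinoid half-site or TATA motif. The table had 32 windows for 30 members. Of those 32, the xenobiotic response core was in 16, against 28.2% of 32851 windows of all genes. The GC box was in 15 (46.9%, against 32.7%), the retinoid half-site in 5 (15.6%, against 14.0%), the TATA box in 5 (15.6%, against 12.4%), the AP-1 site in 3 (9.38%, against 6.75%) and the TCF/LEF site in 0 (against 3.21%). A match describes letters only.

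With all 4 libraries, none of the 38 members passed, and 19 of them had both 1-week values above both on-DMBA values. The test was limma on log2(scaled CPM + 0.5), adjusted over all 15419 genes tested by Benjamini-Hochberg at 0.05, and it called 0 members higher and 0 lower, as it called 0.0% of all genes in either direction. At an unadjusted p under 0.05, limma had 3 members higher (Adam12, Adamts9 and Adamts3; 2.28% of all genes) and 0 lower (0.195% of all genes). On recovered reads edgeR called 0 members (0.0% of all genes), and by its unadjusted p under 0.05 it had 2 higher (1.49% of all genes) and 0 lower (0.272% of all genes). DESeq2 also called 0 members, against 0.104% of all genes higher and 0.0195% lower, and at its unadjusted p under 0.05 it had 3 members higher (2.5% of all genes) and 0 lower (1.15% of all genes). The 19 members without overlap compare with 14.0% of all genes, and no tested member was lower without overlap, against 9.14% of all genes. The median log2 difference, 1 week minus on DMBA, was 1.14 over the members and -0.02 over all genes tested, and 35 of the 38 differences were above 0, against 48.7% of all genes. All 38 had a value of 1 or more in at least 1 library of each group. A fit with the replicate number as a block called 3 members higher (1.85% of all genes) and 0 lower (0.0195% of all genes), although the numbers mark different mice. With 2 libraries against 2, an exact permutation test of a single gene cannot go below a two-sided p of 0.33.

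**Figure D1:**
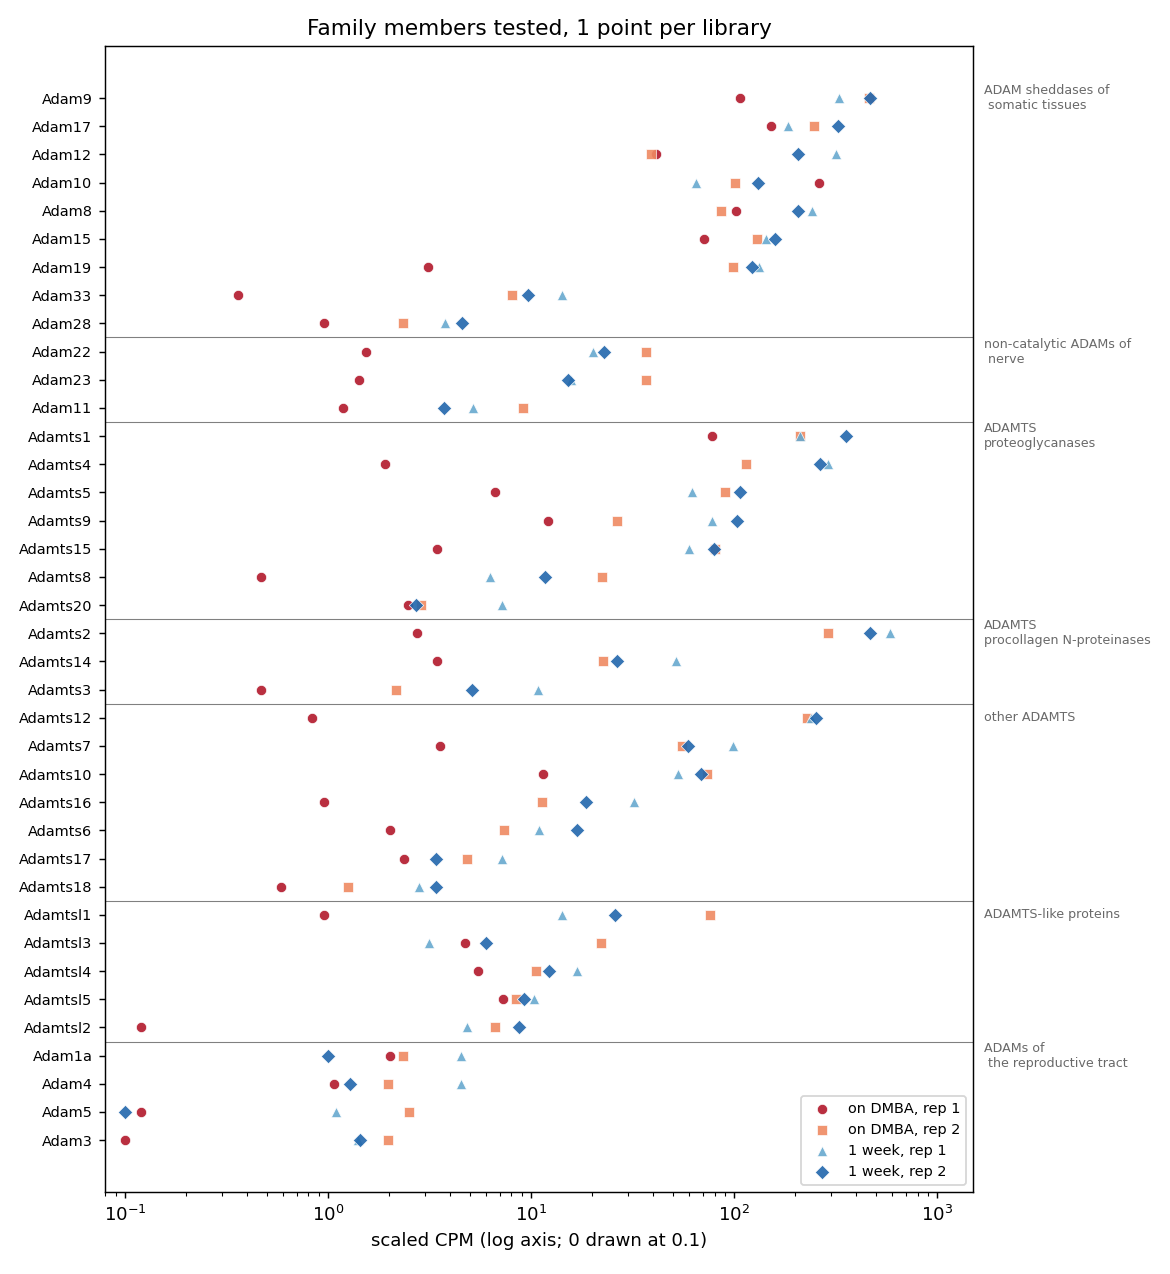
Scaled CPM (log axis) of the 38 tested members in each library, grouped by role, with 1 point per library. On-DMBA replicate 1 is the lowest library for 32 members, and Adam12 and Adam8 are members at which both on-DMBA libraries lie close together below both 1-week libraries.

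On-DMBA replicate 1 had the lowest level of 32 of the 38 members and the highest of 1, Adam10. Both 1-week libraries were above that library at 34 members (40.2% of all genes) and below it at 1 (43.8% of all genes). Against on-DMBA replicate 2, both were above at 19 members (34.6% of all genes) and below at 10 (26.1% of all genes). Between the on-DMBA libraries, 21 of 38 members differed by more than 4-fold, against 22.2% of all genes, and between the 1-week libraries 0 did, against 2.3% of all genes. Without on-DMBA replicate 1 the members' median log2 difference was 0.21, with all genes at 0.04. Limma then called 1 member higher, Adam12 (2.35% of all genes), and 2 lower, Adamtsl1 and Adamtsl3 (0.999% of all genes). Without on-DMBA replicate 2 the median was 2.42, with all genes at -0.06, and limma called 22 members higher (14.3% of all genes) and 1 lower, Adam10 (10.0% of all genes). In these fits the lone on-DMBA library was assumed to vary like the 1-week pair, with the variance pooled over genes. The calls therefore measure no spread of a gene on DMBA.

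Per length, the family as a whole was lowest in on-DMBA replicate 1. Sheddases made up the largest part in every library, with the highest share in on-DMBA replicate 1. Summed scaled CPM per kb of exon over the 56 members was 211, 519, 642 and 704. The 9 ADAM sheddases of somatic tissues made up 85.0%, 55.2%, 51.3% and 54.9% of that sum, the 7 proteoglycan-cutting ADAMTS 9.24%, 19.0%, 20.5% and 23.7%, and the 3 procollagen N-proteinases 0.534%, 8.57%, 14.4% and 9.93%. In on-DMBA replicate 1 the leading member per kb was Adam10 at 56.7, followed by Adam17 at 33.5, Adam8 at 32.8, Adam9 at 26.4 and Adam15 at 23.7. Adam9 led the other libraries, at 114, 81.3 and 116 per kb. Next to it stood Adam17 at 55.0 per kb in on-DMBA replicate 2, Adamts2 at 80.4 in 1-week replicate 1 and Adamts1 at 72.6 in 1-week replicate 2. In 1-week replicate 1, Adam9 and Adamts2 were thus at nearly the same level per kb.

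**Figure D2:**
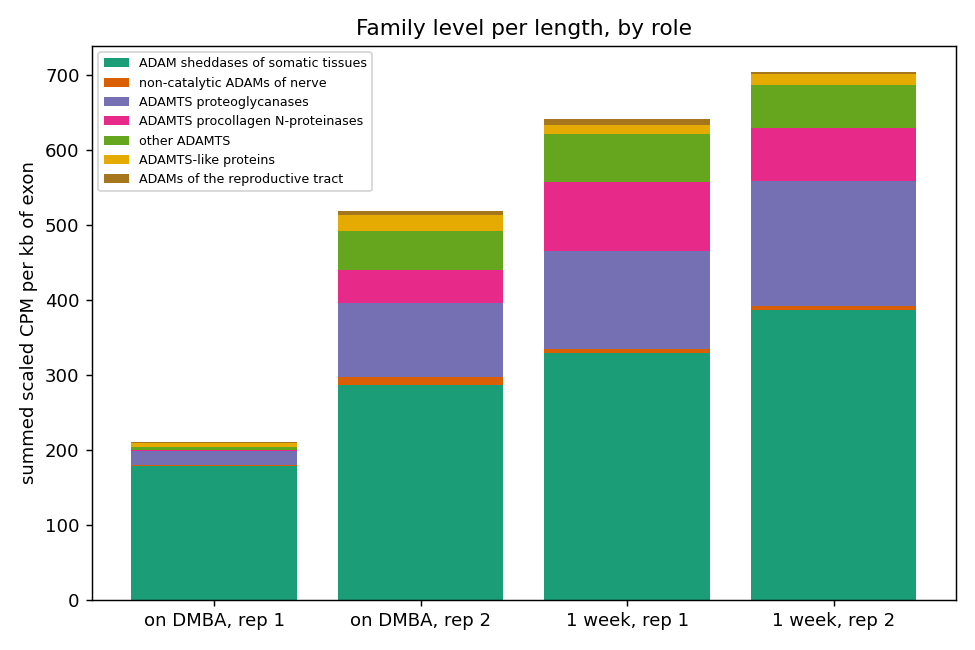
Summed scaled CPM per kb of exon for the 56 members in each library, stacked by role, from 0. The bars reach 211, 519, 642 and 704, and the part that is not made of sheddases is smallest in on-DMBA replicate 1.

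Adam12, one of the sheddases, had the smallest p of the family. Adam12 (meltrin alpha), a protease known from muscle precursors and activated mesenchymal cells, measured 41.2 and 38.8 on DMBA against 316 and 207 at 1 week, from 347, 216, 2024 and 1452 reads. The on-DMBA libraries, which differed widely in fibroblast and keratinocyte markers, had nearly the same Adam12 level, and both 1-week libraries lay above them. The log2 difference was 2.66 (SE 0.51, n = 2 per group, limma adjusted p = 1.0). The value was 2.71 without on-DMBA replicate 1 (limma adjusted p = 0.000353) and 2.62 without on-DMBA replicate 2 (limma adjusted p = 8.19e-05). With either 1-week library left out it was 2.36 or 2.97 and did not pass. The fits with 1 on-DMBA library could not measure the spread of Adam12 on DMBA. Over all 14 alternatives it lay between 2.36 and 2.97, and the DESeq2 adjusted p was 0.0911. The myofibroblast and smooth muscle actin gene Acta2 was at 43.3, 38.0, 267 and 324, also nearly equal on DMBA and higher in both 1-week libraries. It was singled out after its values were seen, and 5 of the other 6 smooth muscle and pericyte markers were far lower in on-DMBA replicate 1 than in replicate 2, such as Myh11 at 0.83 and 13.6 and Rgs5 at 0.36 and 36.6. The part of these cells in the Adam12 difference was not tested. The summed fibroblast markers were at 41960 in on-DMBA replicate 2, where Adam12 was at 38.8, and at 47840 and 50440 in the 1-week libraries. Of the 9 fibroblast markers, 4 were higher at 1 week without overlap and 0 lower, against 14.0% and 9.14% of all genes. Pdgfra was among them, at 4.04, 298, 802 and 739, while Dcn, at 6.06, 898, 559 and 743, was not (both named outside the rule for genes). The part of fibroblasts in the Adam12 difference was not tested either.

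Adam8, a sheddase known from leukocytes that can cut L-selectin, stood at 102 and 86.0 on DMBA, compared with 242 and 206 at 1 week. Its on-DMBA libraries also lay close together and its groups did not overlap. The log2 difference was 1.24 (SE 0.50, limma adjusted p = 1.0), and leaving out on-DMBA replicate 1 or 2 gave 1.37 or 1.12, neither of which passed. The summed myeloid markers were at 14.5 in on-DMBA replicate 1, where Adam8 was at 102, and at 14660 in on-DMBA replicate 2, where it was at 86.0, and the part of myeloid cells in the Adam8 level was not tested.

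The classic sheddases Adam10 and Adam17 showed no difference past the test. Adam10, which cuts Notch receptors and E-cadherin, had 260.5 and 101 on DMBA but 64.9 and 132 at 1 week. It was highest in on-DMBA replicate 1, while on-DMBA replicate 2 lay between the 1-week libraries. Its log2 difference was -0.81 (SE 0.71, limma adjusted p = 1.0), and fits lacking on-DMBA replicate 1 or 2 gave -0.13 or -1.49, the latter past the threshold (limma adjusted p = 0.0456). Adam17, the tumour necrosis factor converting enzyme that also releases ligands of the EGF receptor, measured 151 and 248 on DMBA against 184 and 326 at 1 week, with overlapping groups and a log2 difference of 0.34 (SE 0.61, limma adjusted p = 1.0).

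Adam19 (meltrin beta), which can process neuregulin, stood at 3.09 and 98.2 on DMBA, compared with 132 and 122 at 1 week. Its groups did not overlap, but on-DMBA replicate 2 was nearer to the 1-week libraries than to its own replicate. Adam33, a sheddase of mesenchymal cells, had 0.36 and 8.08 on DMBA but 14.2 and 9.70 at 1 week. Adam9, a widely expressed sheddase, measured 107 and 462 on DMBA against 329 and 468 at 1 week, so its groups overlapped. Adam15 (metargidin), which also binds integrins, stood at 70.7 and 130 on DMBA, compared with 143 and 159 at 1 week, and the lymphocyte sheddase Adam28 had 0.95 and 2.33 on DMBA but 3.75 and 4.56 at 1 week. In all, 6 of the 9 sheddases were higher at 1 week without overlap, none was lower (14.0% and 9.14% of all genes), and the median log2 difference of the 9 was 1.19, which was 0.37 without on-DMBA replicate 1.

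The proteoglycan-cutting ADAMTS genes included Adamts9, the member with the second smallest p. Adamts9, which cuts versican, measured 12.1 and 26.4 on DMBA against 77.4 and 103 at 1 week. Both on-DMBA libraries lay below both 1-week libraries, and the gap between the groups was wider than that within either. The log2 difference was 2.29 (SE 0.60, limma adjusted p = 1.0), and it was 1.74 without on-DMBA replicate 1 (limma adjusted p = 0.0558) and 2.83 without on-DMBA replicate 2 (limma adjusted p = 2.16e-06). The sums of 5 of the 7 marker lists (endothelium, fibroblasts, smooth muscle and pericytes, T and NK cells, mast cells) had the same order of libraries as Adamts9. Apart from on-DMBA replicate 1, the T and NK cell sum was mostly Cd4 (27.3, 52.4 and 59.2), and the mast cell sum mostly Kit (4.85, 10.6 and 29.4). In those lists Cd8a, Nkg7, Cma1, Tpsb2 and Fcer1a did not have that order. The part of these cell types in Adamts9 was not tested.

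Adamts4, an aggrecanase, stood at 1.90 and 114 on DMBA, compared with 288.5 and 264 at 1 week. The groups did not overlap, yet the largest gap was between the on-DMBA libraries, and the log2 difference of 4.06 (SE 1.79, limma adjusted p = 1.0) became 1.27 without the first on-DMBA library and 6.85 without the second (limma adjusted p = 1.06e-33). It was 2.25 by edgeR and 2.21 by DESeq2. Adamts1, a versican-cutting protease, had 78.0 and 210.3 on DMBA but 211 and 354 at 1 week, so on-DMBA replicate 2 and 1-week replicate 1 were nearly equal. Its direct neighbour on the chromosome in RefSeq, the aggrecanase gene Adamts5, measured 6.65 and 90.1 on DMBA against 62.0 and 106 at 1 week, with overlapping groups. Another neighbouring pair, Adamts15 and Adamts8, held levels of 3.44, 80.8, 60.2 and 79.7 for the first and of 0.47, 22.4, 6.25 and 11.7 for the second. Both genes of that pair were highest in on-DMBA replicate 2. Adamts20, known for its part in the spread of pigment cells in skin, was low throughout, at 2.49, 2.87, 7.19 and 2.71. Of these 7 genes, 3 were higher without overlap (Adamts9, Adamts4 and Adamts1) and none lower, against 14.0% and 9.14% of all genes. Their median log2 difference was 1.68, which was 0.38 without on-DMBA replicate 1.

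All 3 procollagen N-proteinase genes, whose products remove the N-terminal propeptide of fibrillar procollagens, were higher in both 1-week libraries without overlap, as were 14.0% of all genes. Adamts2, the main enzyme of this kind in skin, stood at 2.73 and 288 on DMBA, compared with 584.5 and 464 at 1 week. Its procollagen substrates were also lowest by far in on-DMBA replicate 1, since Col1a2 was at 38.5, 10605.5, 14287 and 12903 and Col3a1 at 68.5, 20658, 20761 and 27662. The log2 difference of Adamts2 was 4.09 (SE 2.06, limma adjusted p = 1.0), with 0.85 when the first on-DMBA library was left out and 7.33 when the second was. In the count models it was 1.86 by edgeR and 1.81 by DESeq2. Adamts3, which also helps to activate the lymphatic growth factor VEGF-C, had 0.47 and 2.15 on DMBA but 10.8 and 5.13 at 1 week, from 4, 12, 69 and 36 reads. Its log2 difference was 2.31 (SE 0.87, limma adjusted p = 1.0) with all libraries and 1.59 without on-DMBA replicate 1. Adamts14 measured 3.44 and 22.6 on DMBA against 51.4 and 26.4 at 1 week, where on-DMBA replicate 2 and 1-week replicate 2 were close.

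Among the other ADAMTS genes, 5 of the 7 tested were higher without overlap and none lower (14.0% and 9.14% of all genes), with a median log2 difference of 1.66 that was 0.45 without on-DMBA replicate 1. Adamts12, which can cut the cartilage oligomeric matrix protein COMP, showed the widest gap of the family between the on-DMBA libraries, at 0.83 and 228 on DMBA against 238 and 253 at 1 week. These levels came from 7, 1269, 1524 and 1775 reads, and the exact Poisson 95% interval was 0.33 to 1.71 scaled CPM in on-DMBA replicate 1 and 215.39 to 240.64 in on-DMBA replicate 2. The log2 difference of Adamts12 was 3.82 with all libraries, 1.1 by edgeR and 1.06 by DESeq2. Without on-DMBA replicate 1 it was 0.11, and without on-DMBA replicate 2 it was 7.53. Adamts7, which also cuts COMP, stood at 3.56 and 55.6 on DMBA, compared with 98.5 and 59.2 at 1 week. Adamts16 had 0.95 and 11.3 on DMBA but 32.04 and 18.5 at 1 week, which is a log2 difference of 2.59 (SE 1.14, limma adjusted p = 1.0), and 1.08 without on-DMBA replicate 1. Adamts6 measured 2.02 and 7.36 on DMBA against 10.9 and 16.8 at 1 week, and Adamts18 measured 0.59 and 1.26 on DMBA against 2.81 and 3.42 at 1 week. Adamts10 and Adamts17, both tied to fibrillin microfibrils, had overlapping groups, at 11.4, 73.2, 52.8 and 68.5 for the first and 2.37, 4.85, 7.19 and 3.42 for the second.

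The ADAMTS-like genes held 2 of the 3 members that passed without on-DMBA replicate 1, and both were lower. Adamtsl1 stood at 0.95 and 75.7 on DMBA, compared with 14.2 and 25.8 at 1 week. Its 1-week levels lay between those of the on-DMBA libraries, so the log2 difference was -1.95 without on-DMBA replicate 1 (limma adjusted p = 0.0143) and 3.76 without on-DMBA replicate 2 (limma adjusted p = 9.53e-09). Adamtsl3 had 4.75 and 22.1 on DMBA but 3.13 and 5.99 at 1 week, which is a log2 difference of -1.17 (SE 0.95, limma adjusted p = 1.0). Without on-DMBA replicate 1 it was -2.22 (limma adjusted p = 0.012), while without on-DMBA replicate 2 it was -0.11. Adamtsl4, which is tied to the fibres that hold the eye lens, measured 5.46 and 10.6 on DMBA against 16.9 and 12.3 at 1 week. Adamtsl2, which binds latent TGF-beta binding protein, stood at 0.12 and 6.64 on DMBA, compared with 4.84 and 8.70 at 1 week, and Adamtsl5 had 7.24 and 8.44 on DMBA but 10.3 and 9.27 at 1 week.

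The 3 non-catalytic ADAMs known from nerve, which bind LGI proteins or integrins rather than cut substrates, were each highest in on-DMBA replicate 2. Adam22 measured 1.54 and 37.0 on DMBA against 20.2 and 23.0 at 1 week, and Adam23 measured 1.42 and 36.6 on DMBA against 15.8 and 15.3 at 1 week. Adam11 stood at 1.19 and 9.15 on DMBA, compared with 5.16 and 3.71 at 1 week. For all 3 the 1-week levels lay between those of the on-DMBA libraries. Their median log2 difference was 0.92 with all libraries, and none of the 3 passed in that fit. The median was -0.98 when on-DMBA replicate 1 was left out and 3.06 when on-DMBA replicate 2 was.

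**Figure D3:**
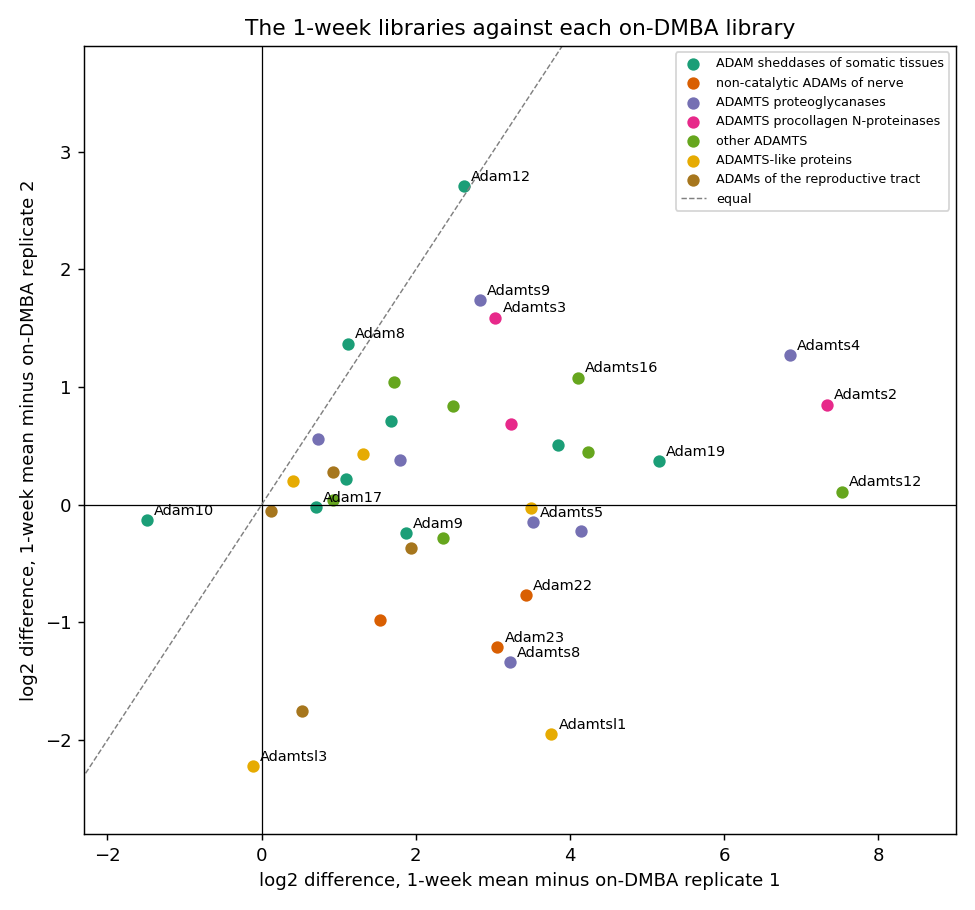
Log2 difference of the 1-week libraries from on-DMBA replicate 1 (x axis) and from on-DMBA replicate 2 (y axis) for the 38 tested members, 1 point per gene. Both axes use the same 1-week libraries, so they are not independent. Adam12 lies at 2.62 and 2.71 near the line of equal differences, Adamts12 at 7.53 and 0.11, and Adamtsl1 at 3.76 and -1.95.

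Of the 20 ADAMs known mainly from the reproductive tract, where several act in sperm, 4 were tested and 16 were too low. Adam1a was at 2.02, 2.33, 4.53 and 1.00, Adam4 at 1.07, 1.97, 4.53 and 1.28, Adam3 at 0, 1.97, 1.41 and 1.43 and Adam5 at 0.12, 2.51, 1.09 and 0, and the groups overlapped for each. Adam5 had a log2 difference of -0.61 (SE 1.12, limma adjusted p = 1.0). The median of the 4 was 0.32. The 18 members that were not tested also include Adamts13, the protease of von Willebrand factor, and Adamts19. They are Adam1b, Adam2, Adam6a, Adam6b, Adam7, Adam18, Adam21, Adam24, Adam25, Adam26a, Adam26b, Adam29, Adam30, Adam32, Adam34 and Adam39 besides those genes, with 210 reads among them over all libraries. The highest value among them was 3.13 scaled CPM, from 20 reads of Adam30 in 1-week replicate 1, against 2 reads in 1-week replicate 2 and 0 in both on-DMBA libraries. In 13 of the 18 every library was below 1 scaled CPM. Adam6a and Adam6b, Adam26a and Adam26b, and Adam24, Adam25, Adam34 and Adam39 belong to groups of similar neighbouring genes, so reads may have been shared between copies.

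Inhibitors of these proteases were also lowest in on-DMBA replicate 1. Of 7 genes listed for inhibition and clearance, 7 were tested and 0 passed, and 3 were higher at 1 week without overlap (Timp1, Timp4 and A2m) and 0 lower, against 14.0% and 9.14% of all genes. That library had the lowest level of all 7. Their median log2 difference was 1.67 with all libraries, -0.15 without that library and 2.54 without on-DMBA replicate 2. Timp1, a secreted inhibitor of metalloproteases, was at 2.85, 80.0, 116 and 136, the related Timp4 at 0.24, 0.54, 2.50 and 2.14, and the broad protease trap A2m at 0.12, 1.08, 4.53 and 3.42. On DMBA, 3 reads correspond to 0.356 and 0.538, so Timp4 lay at or below that level in both libraries and A2m below it in replicate 1. Timp2 was at 25.8, 326, 293 and 296, and Lrp1, an endocytic receptor that clears ADAMTS enzymes, at 583, 2281, 2066 and 2024. Timp3, the main tissue inhibitor of Adam17 and the aggrecanases, was named after its values were seen and was at 65.1, 332, 100.2 and 131, highest in on-DMBA replicate 2.

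Of 15 genes for maturation, transport and glycosylation of the proteases, 14 were tested and 0 passed, 7 were higher without overlap and 2 lower (14.0% and 9.14% of all genes), and the median log2 difference was 0.37, and 0.15 without on-DMBA replicate 1. Furin, the convertase that removes the propeptide of most members, was at 153, 110, 149 and 116, and the related convertases Pcsk5 at 2.97, 56.5, 163 and 193, Pcsk6 at 7.12, 3.59, 13.6 and 14.0 and Pcsk7 at 46.7, 55.6, 56.4 and 77.7. Rhbdf2, which escorts Adam17 to the surface, was at 48.0, 39.0, 56.7 and 54.3, while Frmd8, which stabilises that complex, was at 65.9, 81.5, 63.0 and 56.6. Of the tetraspanins that carry Adam10, Tspan14 was at 64.0, 76.6, 91.9 and 102, and Tspan5, which was lower at 1 week without overlap, at 26.6, 33.2, 16.7 and 20.4. Pofut2 and B3galtl, which add the sugars that ADAMTS repeats need for secretion, were at 36.1, 67.8, 123 and 112.5 and at 11.99, 18.8, 19.7 and 19.4. None of these differences passed.

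Of 22 membrane substrates, all were tested and 0 passed, with 2 higher and 2 lower without overlap and a median log2 difference of -0.07. Over all genes 14.0% were higher and 9.14% lower without overlap, so these counts are near or below the background. The cytokine Tnf, released by Adam17, was at 2.85, 5.56, 10.9 and 11.8, and the syndecan Sdc4 at 348, 429, 486 and 449. The EGF receptor ligand Btc, a substrate of Adam10, was at 4.27, 22.8, 1.09 and 1.28, and the chemokine Cx3cl1 at 15.2, 22.8, 7.81 and 5.42. Without on-DMBA replicate 1 the median log2 difference was 0.15, with Btc at -3.79 and Tgfa, Epgn and Cdh1 at 2.67, 3.24 and 2.59. Without on-DMBA replicate 2 the median was -0.34, with Btc at -1.5 and the latter 3 at -2.26, -1.44 and -3.62, opposite in sign. In that fit Tnf, Tnfrsf1b, Cxcl16 and Csf1r were at 1.83, 6.45, 3.59 and 8.73, and Notch1 was at -2.35. The most abundant substrates were the syndecan Sdc1 at 1783, 308, 709 and 733.5 and the myeloid receptor Csf1r at 1.31, 1707, 696 and 840.

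Of 16 matrix substrates of ADAMTS enzymes, all were tested and 0 passed, with 6 higher and 1 lower without overlap, against 14.0% and 9.14% of all genes. Their median log2 difference was 2.14 with all libraries and 0.11 without on-DMBA replicate 1. The proteoglycan Acan was at 0.71, 2.69, 11.2 and 7.84, Comp at 0.59, 2.33, 4.22 and 9.13, Thbs1 at 996, 759, 1080 and 1174, and Vwf, the endothelial substrate of Adamts13, at 0.47, 24.9, 161 and 477. Ltbp1, a latent TGF-beta binding protein, was at 288, 63.7, 56.7 and 58.2. Without on-DMBA replicate 1 the log2 difference was 3.45 for Vwf and -2.42 for Fbn2. Without on-DMBA replicate 2 it was 8.15 for Vwf and 1.8 for Fbn2, so Fbn2 turned direction with the library left out. In the latter fit Col1a2 and Fbn1 were also far higher, at 8.44 and 8.04, and Ltbp1 was lower, at -2.32.

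**Figure D4:**
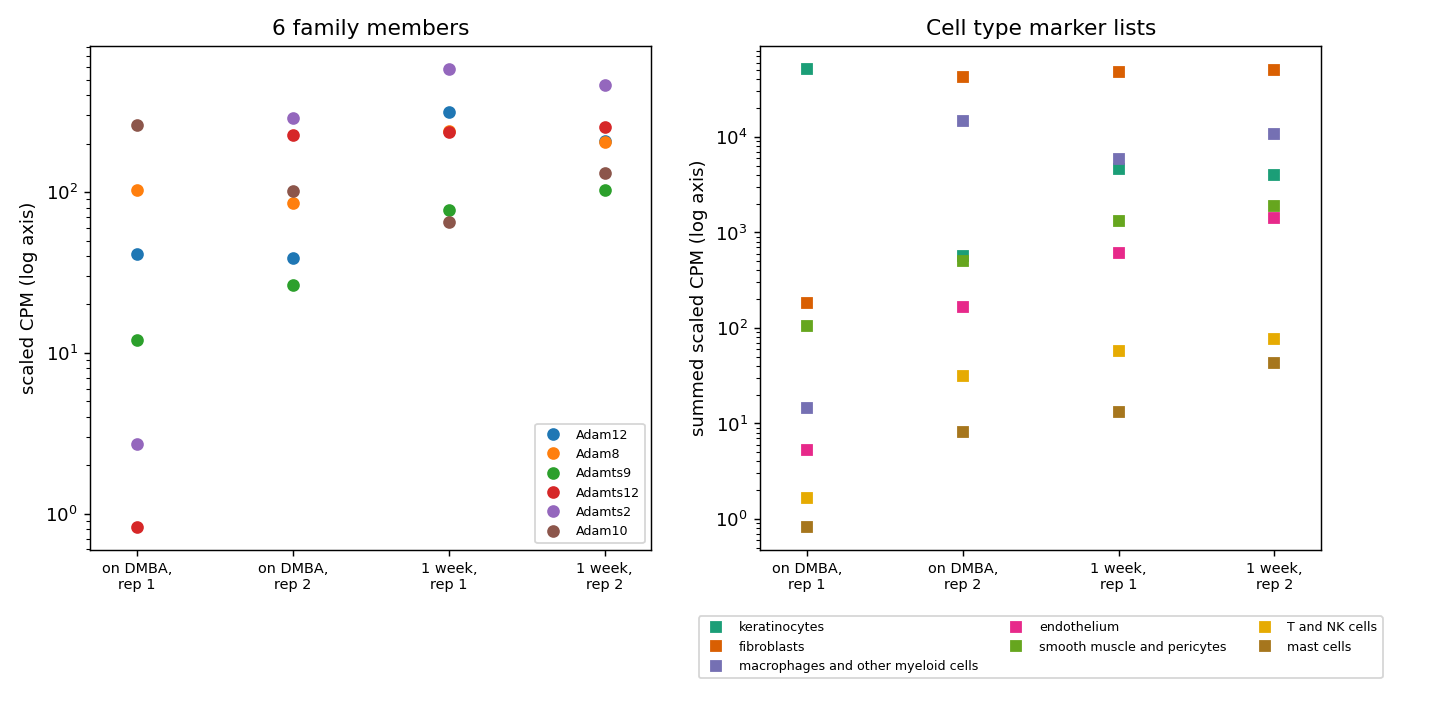
Left, scaled CPM of 6 members in each library. Right, summed scaled CPM of 7 cell type marker lists in the same libraries. Both axes are log axes. Adamts2 and Adamts12 are far lower in on-DMBA replicate 1 than in the other 3 libraries, as are the fibroblast and myeloid lists, while Adam12 (41.2 and 38.8) and Adam8 (102 and 86.0) are at like levels in both on-DMBA libraries, whose keratinocyte marker sums are 51670 and 573.

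Single markers show the scale of the differences in cell types between libraries, given here for the most abundant ones. Krt14 and Krt5, keratins of basal keratinocytes, were at 26654, 202, 2644 and 1944 and at 11731, 55.3, 539 and 613. The myeloid lysozyme gene Lyz2 was at 1.19, 8839, 3112 and 6663. Pecam1, of endothelium, was at 2.61, 47.2, 209 and 402, and Pdgfrb, a pericyte and fibroblast receptor, at 1.19, 272, 536.5 and 449. Cd4 was at 0.47, 27.3, 52.4 and 59.2 and Cd3g at 0.24, 0.54, 1.56 and 8.84, and the mast cell genes Kit and Cma1 were at 0.47, 4.85, 10.6 and 29.4 and at 0, 0.90, 0.63 and 6.28. With all libraries 0 markers passed. Without on-DMBA replicate 1, limma called 5 of 6 endothelial, 3 of 7 smooth muscle and pericyte and 11 of 12 keratinocyte markers higher, and 0 of 9 fibroblast and 0 of 8 myeloid markers in either direction, with 2.35% of all genes higher and 0.999% lower. Without on-DMBA replicate 2 it called 11 of 12 keratinocyte markers lower and 9 of 9 fibroblast, 8 of 8 myeloid, 6 of 6 endothelial and 6 of 7 smooth muscle and pericyte markers higher, with 14.3% of all genes higher and 10.0% lower. The keratinocyte calls thus turned direction with the library left out. Adam12 was higher in both fits, neither of which measured its spread on DMBA. The part of these cell types in its difference was not tested.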

How the data were processed

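Per the labels' protocols, libraries of 4 sorted tumour cell samples, 1 mouse each, were depleted of ribosomal RNA and made with a method that keeps the strand. Listed in the submitters' processing notes are the mm9 build and the tools edgeR 3.2.3, HTSeq, TopHat2 2.1 and CASAVA 1.8.2. For the annotation and the strand setting of the counting, no statement is given in the sources used here. The authors deposited 1 table of a normalised signal per gene, which they call CPM. Its columns sum to 1149287, 1011509, 867697 and 1092838, so it is named scaled CPM here, and 100.0% of values were whole multiples of 1 read (tolerance 0.01), from which reads were recovered.

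R 4.3.3 and limma 3.58.1 (eBayes with trend) were run on the 15419 genes that reached 1 scaled CPM in 2 or more libraries, with a pseudocount of 0.5. Differences are on that log2 scale and understate low genes. The deposited values were never treated as counts in the main test, while edgeR 4.0.16 and DESeq2 1.42.0 were run on the recovered reads as alternatives. Other pseudocounts, filters and scalings, no trend, a replicate block and leaving out each library were tried. The same code was also run on simulated counts with known changes. Those counts held no difference in cell types between libraries, unlike these data, and no result here rests on them. Levels per kb used the exon union of GENCODE M21, found for all 56 members, and its lengths may differ from those of the mm9 annotation. Promoter windows came from RefSeq, build GRCm38.p6, and no other coordinates are given since the build differs. The members and lists were chosen with earlier results of these data known. By the rule for names, every tested member is given by value, in full the 5 with the smallest p in each direction (3 had a negative difference) with Adam10 and Adam17, and from the lists of related genes those without overlap and the most abundant pair. Replicate numbers mark different mice and do not pair them. Nothing beyond the mouse identifiers says how the samples were separated, so p values measure the spread between these samples.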

Additional observations from a re-analysis of the deposited data

How the results depend on the processing

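With 2 libraries per group, and with on-DMBA libraries that differ by more than 4-fold at 21 of the 38 members, no member passed with all 4 libraries under other pseudocounts, filters or scalings, without the trend, or with edgeR or DESeq2 on recovered reads. DESeq2 called 16 genes higher and 3 lower over the whole table. With the replicate block, limma called 285 genes higher and 3 lower, among them 3 members, Adamts4, Adamts2 and Adamts12. Same-numbered libraries had deviations that correlated at 0.02, and the numbers mark different mice, so the block stands for no known pairing. Adamts12 was called although its log2 gap, replicate 2 minus replicate 1, was 7.42 on DMBA and 0.09 at 1 week. What the block calls rest on was not tested. With no filter, 25 of 56 members were higher without overlap (15.4% of 21747 genes) and 1 was lower (7.6%). The members' median log2 difference stayed above 0 under all 14 alternatives, from 0.21 to 2.42, and the median over all genes moved by over 0.1 with columns scaled to equal sums, to 0.11 from -0.02. Leaving out 1 library at a time gave 0 to 2212 genes higher and 0 to 1549 lower, 0 to 22 members higher and 0 to 2 lower, and 19 to 34 members higher without overlap and 1 to 10 lower. The upper counts of calls came without on-DMBA replicate 2, except the 2 lower members (without on-DMBA replicate 1), and without either 1-week library no gene passed. A lack of overlap is also commoner over all genes when 1 on-DMBA library stands alone. Both 1-week libraries lay above on-DMBA replicate 1 for 40.2% of all genes and below it for 43.8%. Against on-DMBA replicate 2 these shares were 34.6% and 26.1%. For the fits without a 1-week library, such shares were not worked out. Below about 3 reads, a level could not be told from 0 in any library.

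The log2 difference changed sign in some settings for 15 members. Over the fits that leave out 1 library it ran from -1.95 to 3.76 for Adamtsl1, -1.21 to 3.06 for Adam23, -1.34 to 3.22 for Adamts8, -0.98 to 1.53 for Adam11 and -0.77 to 3.43 for Adam22. It ran from -0.03 to 3.5 for Adamtsl2, -0.15 to 3.52 for Adamts5, -0.28 to 2.35 for Adamts10, -0.22 to 4.14 for Adamts15 and -0.24 to 1.87 for Adam9. It ran from -0.07 to 0.75 for Adam17, -0.37 to 1.94 for Adam3, -0.83 to 0.91 for Adam1a, -0.14 to 1.35 for Adam4 and -1.75 to 0.53 for Adam5. The count models edgeR and DESeq2 gave -0.95 and -1.0 for Adamtsl1, -0.28 and -0.33 for Adam23, -0.19 and -0.23 for Adam11 and -0.36 and -0.42 for Adamts8. For Adam1a the value was -0.01 with a pseudocount of 0.1 and -0.0 with median ratio scaling. The cause of these changes was not tested.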
